A study of Homo sapiens with 18 samples.

Results

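The 10 genes described here, GAS5, SNHG1, SNHG5, SNHG6, SNHG7, SNHG8, SNHG12, SNHG15, SNHG16 and ZFAS1, are noncoding genes that host small nucleolar RNAs (snoRNAs). They were taken by symbol from the 2 deposited expression tables, which list 15358 genes in MCF10A and 15257 in hTERT RPE-1, and all 10 are in both tables and passed the filter on low values in both cell lines. Polyadenylated RNA was sequenced from MCF10A, an immortalised, nontransformed human breast epithelial line, and hTERT RPE-1, a human retinal pigment epithelial line immortalised with telomerase. In each line, 3 libraries each were made after transfection with a nontargeting control siRNA (siNT), the hsa-miR-28-5p mimic (miR-28) or the hsa-miR-708-5p mimic (miR-708), all at 30 nM for 72 h. The labels number the MCF10A libraries 7, 8 and 9 and the hTERT RPE-1 libraries 1, 2 and 3, which gives 18 libraries in all, and no change to the genome of either line other than its immortalisation is given for any group. The question for these genes was whether a mimic of either microRNA changed their RNA levels against siNT, and whether the lines and the mimics differed in that change.

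Most human snoRNAs are cut out of the introns of longer host transcripts, and guide chemical modification of ribosomal RNA as parts of small ribonucleoproteins. Box C/D snoRNAs guide 2′-O-methylation and box H/ACA snoRNAs guide pseudouridylation. Many noncoding hosts begin with a terminal oligopyrimidine (TOP) tract, as ribosomal protein mRNAs do, and several are engaged by ribosomes and cleared by nonsense-mediated decay (NMD), so the level of the spliced host RNA depends on its transcription and on its turnover. GAS5 is best known as the RNA that accumulates in growth-arrested cells.

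RefSeq annotation (GRCh38.p14) placed 37 snoRNA genes inside the 10 hosts, all 37 in introns of the transcript used here for each host. By name, 28 are box C/D and 8 are box H/ACA snoRNAs, and 1 has no class in its name. GAS5 (chr1:173863899-173868882, minus strand, hg38, from the deposited files) holds 11 of them, including SNORD44, SNORD47, SNORD74 to SNORD81 and the box H/ACA snoRNA SNORA103. SNHG1 (chr11:62851978-62855885, minus) holds 9, SNHG16 (chr17:76557764-76565348, plus) holds SNORD1A, SNORD1B and SNORD1C, and ZFAS1 (chr20:49278178-49289258, plus) holds SNORD12, SNORD12B and SNORD12C. SNHG5 (chr6:85677007-85678733, minus) holds SNORD50A and SNORD50B, and SNHG6 holds SNORD87. Hosts of box H/ACA snoRNAs only are SNHG7 (chr9:136724594-136728184, minus) with SNORA17A and SNORA17B, SNHG8 (chr4:118278762-118279823, plus) with SNORA24, and SNHG15 (chr7:44983023-44986696, minus) with SNORA9. SNHG12 (chr1:28578538-28582983, minus) holds both classes, as GAS5 does, SNORD99 with SNORA16A, SNORA44 and SNORA61. The snoRNAs themselves, 60 to 134 bases long, were nearly absent from the polyadenylated RNA: SNORD22 was listed in both tables, at 7.18 to 37.5 normalised reads in MCF10A and 1.16 to 60.0 in hTERT RPE-1 (at most 9.50 outside library 1 of the miR-28 group), and SNORD76 in the MCF10A table only, at 0.833 to 5.99. The values below are therefore levels of the host RNAs, and not of the snoRNAs they carry.

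The start regions are shown because many noncoding hosts, like ribosomal protein mRNAs, begin with a TOP tract. RefSeq start windows were found for 8 of the 10 hosts, and those for GAS5, SNHG1, SNHG5, SNHG7, SNHG8, SNHG12, SNHG16 and ZFAS1 were searched. Each line below gives 25 bases before and 30 bases from the annotated start, 5′ to 3′ on the gene's strand, with the longest unbroken run of C and T that touches the 20 bases on either side of the start in capitals. The GAS5 line is the hg38 genome at the gene start of the deposited files, 173868882, since the RefSeq table starts GAS5 further upstream, at 173869045. The RefSeq starts of SNHG12 and ZFAS1 lie downstream of the starts in the files, and the other 5 are the same. For GAS5, SNHG12 and ZFAS1 the start shown is the one with the longer run.
GAS5 (chr1:173868853-173868907, minus): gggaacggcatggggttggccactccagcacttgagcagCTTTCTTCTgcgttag
SNHG1 (chr11:62855856-62855910, minus): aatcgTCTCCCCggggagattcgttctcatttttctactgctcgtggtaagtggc
SNHG5 (chr6:85678704-85678758, minus): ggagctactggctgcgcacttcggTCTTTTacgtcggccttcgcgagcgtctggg
SNHG7 (chr9:136728155-136728209, minus): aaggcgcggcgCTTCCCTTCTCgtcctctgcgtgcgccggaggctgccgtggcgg
SNHG8 (chr4:118278737-118278791, plus): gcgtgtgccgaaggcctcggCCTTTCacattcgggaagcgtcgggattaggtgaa
SNHG12 (chr1:28581844-28581898, minus): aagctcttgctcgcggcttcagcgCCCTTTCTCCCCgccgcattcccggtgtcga
SNHG16 (chr17:76557739-76557793, plus): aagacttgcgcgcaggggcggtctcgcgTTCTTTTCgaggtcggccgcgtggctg
ZFAS1 (chr20:49278617-49278671, plus): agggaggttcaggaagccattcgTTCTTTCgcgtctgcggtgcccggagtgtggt
The longest run had 7 or more bases in SNHG1, SNHG7, SNHG12, SNHG16 and ZFAS1, which is 5 of 8 in the RefSeq windows, where 28.1% of the windows of 12493 listed genes had such a run. The runs of SNHG1 and SNHG7 lay wholly before the annotated start, outside the RNA as annotated. The run of GAS5 began only at base 15 from the start shown, and that of SNHG16 at base 4. A run that begins with a C at the annotated start itself and goes on for at least 4 bases, a measure added after the windows were seen, was present in SNHG5, SNHG7, SNHG12 and ZFAS1, with 11 bases in SNHG12, and in 6.36% of all windows. With at least 5 bases it was present in SNHG5, SNHG12 and ZFAS1, and in 5.07% of all windows. In the RefSeq window of GAS5 the longest run was 4 bases, and at the start in the files it was 9 bases. At the starts in the files the longest run was 7 bases in SNHG12 and 3 in ZFAS1. The run from a C at that start was 2 bases in SNHG12, and 1 in ZFAS1 and in GAS5. The E-box motif CACGTG, a palindrome, was found within 250 bases before to 50 bases after the start of SNHG7 alone among these 8, and in 9.70% of all windows.

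The mimic whose sequence is in the RefSeq table, hsa-miR-708-5p (chr11:79402077-79402099, minus strand, GRCh38.p14), is shown with its seed, bases 2 to 8, in capitals, because both mimics belong to 1 seed family by the study's account and the search for target sites in the hosts rests on it.
hsa-miR-708-5p: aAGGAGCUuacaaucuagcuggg
The 6-base match to this seed, GCTCCT, was searched on the sense strand of 1 spliced GENCODE 44 transcript per host, the one whose ends lie nearest to the gene's ends in the deposited files. It was present in GAS5 alone, once, at bases 355 to 360 of the 723-base transcript GAS5-209, shown here with the match in capitals.
GAS5 site: cttaatggttctGCTCCTggtaacgttttt
Neither AGCTCCT nor GCTCCTA, the longer matches that contain it, was in any of the 10 transcripts, and so neither was the 8-base match that joins them. Among long noncoding RNA transcripts of like length to that of GAS5, 25.3% of 4068 held the 6-base match. For the lengths of the other hosts, which held none, that share ran from 21.4% (SNHG8) to 57.6% (SNHG16). Only 1 transcript per host was searched, and other transcripts of these hosts were not.

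Depth, estimated from the value of 1 read in each library, was 19.4 to 31.7 M reads in MCF10A and 23.8 to 40.3 M reads in hTERT RPE-1, and the lowest member value rested on 64.0 reads. The hosts together made up 0.0855% to 0.126% of all values in MCF10A libraries and 0.0244% to 0.0295% in hTERT RPE-1 libraries. Of 8 breast epithelial markers, all were listed in MCF10A, with medians from 1816 (TP63) to 59604 (KRT5) normalised reads, while KRT5, KRT14, KRT17, KRT6A, CDH1 and EPCAM were not listed in hTERT RPE-1, and TP63 and ITGB4 had medians of 19.6 and 778 there. There, VIM had a median of 121011, CDH2 of 21913 and OTX2 of 715 normalised reads, while TYR and RPE65, defining genes of differentiated pigment epithelium, were not listed and RLBP1 had a median of 11.6. BEST1, another pigment epithelium gene, had a median of 206 in hTERT RPE-1 and of 1016 in MCF10A, each line normalised on its own. RPE65 was listed in MCF10A with a median of 17.4. RPS28, the ribosomal protein gene at the centre of the study, fell with miR-28 to 567 ± 113 normalised reads from 3870.0 ± 249 in MCF10A and to 147 ± 33.04 from 3219.5 ± 295.02 in hTERT RPE-1 (log2 fold change -2.79 and -4.47). In hTERT RPE-1, library 1 of the miR-28 group stood apart, with 15.1% of its values on ribosomal RNA genes against 4.23% to 7.20% in the other 8 libraries, and the hosts' miR-28 results in that line are also given without it, as calls or ranges.

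With the transcript used here for each host, GAS5 had the highest level of the 10 hosts per kilobase of spliced transcript in the siNT libraries of both lines, and SNHG12 and SNHG15 the lowest 2. In MCF10A the mean over 3 siNT libraries was 8010.5 ± 993 normalised reads per kilobase for GAS5, followed by SNHG5 with 4992 ± 477, SNHG8 with 4137 ± 404 and ZFAS1 with 3942 ± 244 (mean ± SD, n = 3). SNHG8 and ZFAS1 did not differ beyond their spread, nor did SNHG6 with 3113 ± 174 and SNHG16 with 2939 ± 968. SNHG1, SNHG7, SNHG12 and SNHG15 came last, with 1796 ± 267, 998 ± 191, 346 ± 119 and 269 ± 85.8 normalised reads per kilobase, and SNHG12 and SNHG15 overlapped. In hTERT RPE-1, GAS5 with 2237 ± 124.7 was followed by SNHG16 with 1467 ± 138, SNHG6 with 1397 ± 109 and ZFAS1 with 1266 ± 79.5 normalised reads per kilobase, each overlapping the next in this order except GAS5. SNHG5 was rank 2 of 10 in MCF10A and rank 8 of 10 in hTERT RPE-1, with 311 ± 16.0. These levels depend on which transcript of a host is counted: with the longest and the shortest of the 40 SNHG5 transcripts that end within 200 bases of the gene's ends, its MCF10A mean would be 2883 or 16945 normalised reads per kilobase. The latter is above GAS5. In hTERT RPE-1 the shortest such transcript of ZFAS1 would give 2283, also above GAS5.

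**Figure D1:**
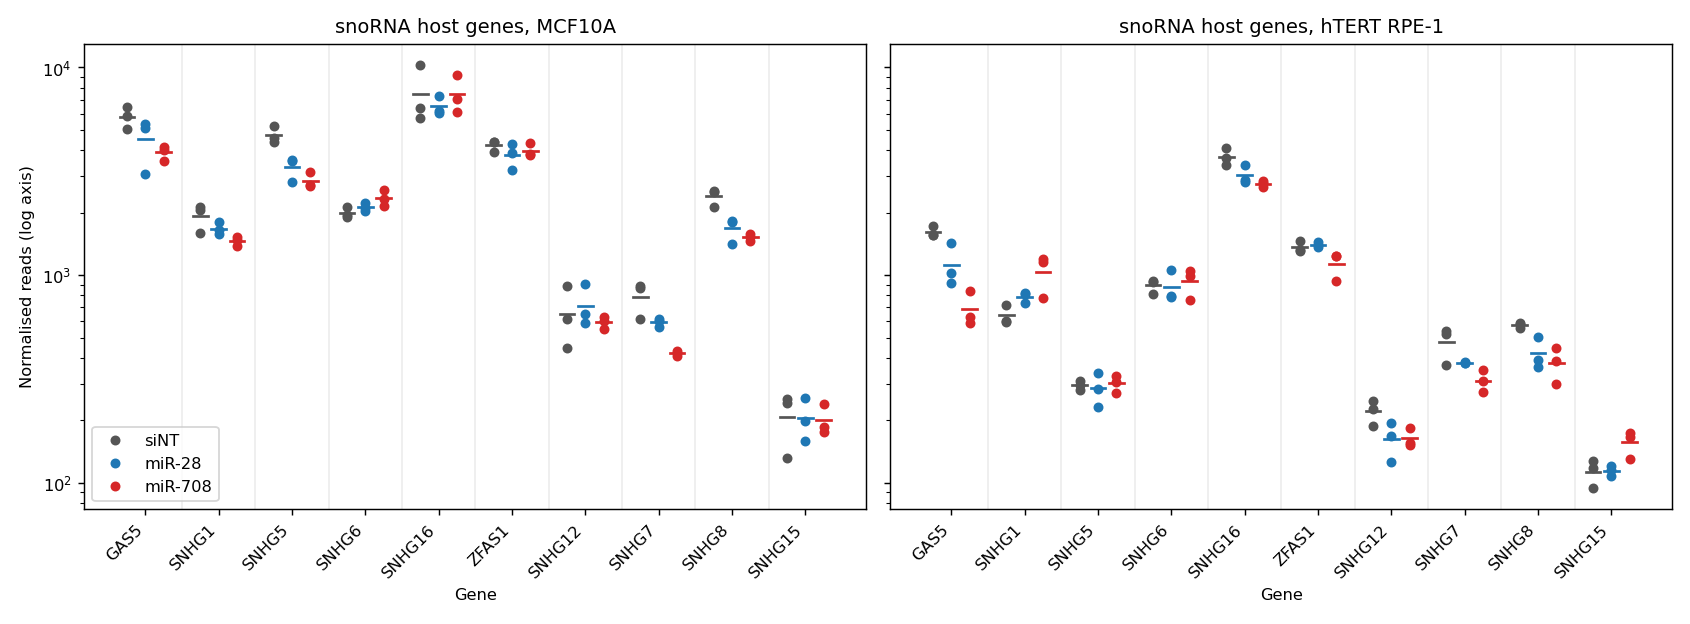
Normalised reads (log axis) of the 10 snoRNA host genes in each of the 18 libraries, MCF10A left and hTERT RPE-1 right, with points for single libraries and bars for the mean of 3, in siNT (grey), miR-28 (blue) and miR-708 (red). GAS5 in hTERT RPE-1 falls from 1565 to 1721 in siNT to 585 to 838 with miR-708, with no overlap, while SNHG1 there rises from 593 to 720 to 775 to 1189.

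In MCF10A, 5 of the 10 hosts fell with miR-708 (GAS5, SNHG1, SNHG5, SNHG7 and SNHG8) and 2 of these, SNHG5 and SNHG8, also fell with miR-28, while no host rose with either mimic. SNHG6 was called higher with miR-708 when libraries were scaled by their totals (0.38, adjusted p = 0.010) or by their upper quartile (0.28, adjusted p = 0.036). A change is called here where limma's moderated test gave a Benjamini-Hochberg adjusted p under 0.05 over all 14726 genes tested in the line. Among all these genes 12.0% were called lower and 10.7% higher with miR-28, and 17.3% lower and 15.5% higher with miR-708. The 5 of 10 hosts called lower with miR-708 were a larger share than that background, and the 2 of 10 with miR-28 were near it. With the library number as a block, the miR-28 count was 4 of 10, against 15.5% of all genes. The hosts were chosen with earlier results known, and these shares were not tested. The miR-708 count was 3 without siNT library 8 or 9, miR-708 library 9 or the variance trend. Called lower with both mimics were 2 of 10 hosts against 9.81% of all genes. The median log2 fold change of the 10 hosts was -0.18 with miR-28 and -0.24 with miR-708, where the medians of all genes were 0.0056 and -0.0047.

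SNHG5, host of the SNORD50 pair, had values of 4366, 4583 and 5234 in the siNT libraries 7, 8 and 9, 2802, 3578 and 3537 with miR-28 and 3126, 2694 and 2701 with miR-708. All 6 mimic libraries lay below the lowest siNT library. The log2 fold change was -0.52 ± 0.12 (SE, adjusted p = 0.0105) with miR-28 and -0.73 ± 0.12 (SE, adjusted p = 0.000979) with miR-708, which left 69.9% and 60.1% of the siNT mean. SNHG8, host of the H/ACA snoRNA SNORA24, went from 2129.6, 2521 and 2548 normalised reads in siNT to 1404, 1810.3 and 1821 with miR-28 and 1464, 1527 and 1569 with miR-708. Again no mimic library reached the lowest siNT library. The changes were -0.52 ± 0.12 (SE, adjusted p = 0.0103) and -0.65 ± 0.12 (SE, adjusted p = 0.00187), 70.0% and 63.3% of the siNT mean.

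SNHG7, which carries the SNORA17 pair, showed the lowest fold change of the 10 in MCF10A, with miR-708. Its values were 614, 863 and 885 in siNT, 602, 564 and 617 with miR-28 and 408, 422 and 431 with miR-708, which is 53.4% of the siNT mean with miR-708. The miR-708 libraries lay close together and below all others, while the miR-28 libraries overlapped siNT library 7. The log2 fold change was -0.88 ± 0.14 (SE, adjusted p = 0.000915) with miR-708 and -0.39 ± 0.14 (SE, adjusted p = 0.0702) with miR-28 (-0.56, adjusted p = 0.013, without siNT library 7). GAS5, the host with the most snoRNAs here, had 5052, 5838 and 6485 normalised reads in siNT, 3078, 5087 and 5336 with miR-28 and 3544, 4014 and 4125 with miR-708. Library 7 of the miR-28 group, the shallowest of the line at 19.4 M reads, was the lowest of all 9, and the other 2 miR-28 libraries overlapped siNT. GAS5 changed by -0.57 ± 0.18 (SE, adjusted p = 0.0336) with miR-708, and gave -0.40 ± 0.18 (SE, adjusted p = 0.138) with miR-28 (-0.15, adjusted p = 0.42, without that library).

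SNHG1, which carries SNORD22 and SNORD25 to SNORD31, had 1603, 2138 and 2050.4 normalised reads in siNT, 1807, 1645 and 1573 with miR-28 and 1479, 1523 and 1377 with miR-708. The miR-708 libraries were all below siNT, and 2 of the 3 siNT libraries were above every mimic library. The log2 fold change was -0.39 ± 0.12 (SE, adjusted p = 0.0241) with miR-708 and -0.20 ± 0.12 (SE, adjusted p = 0.249) with miR-28. The other hosts, SNHG6, SNHG12, SNHG15, SNHG16 and ZFAS1, did not pass the test with either mimic, with log2 fold changes from -0.17 (ZFAS1, miR-28) to 0.23 (SNHG6, miR-708, adjusted p = 0.082). For SNHG6, all 3 miR-708 libraries, at 2578, 2141 and 2315, lay above the siNT libraries, at 1913, 1938 and 2117. SNHG16, SNHG12 and SNHG15 varied most among siNT libraries, SNHG16 from 5705 to 10260.4 normalised reads, so that their 95% intervals with miR-708 ran from -0.43 to 0.48, from -0.57 to 0.42 and from -0.59 to 0.57.

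Groups did not overlap in 2 of 10 hosts with miR-28 and in 6 of 10 with miR-708 in MCF10A, against 41.8% and 46.6% of all genes tested. The same-numbered libraries of MCF10A deviated together, and with the library number as a block GAS5 and SNHG7 were also called lower with miR-28 (adjusted p = 0.021 and 0.041), which made 4 of 10 lower, against 15.5% of all genes under the block. The calls for GAS5 and SNHG1 with miR-708 were the least firm: GAS5 lost its call when any one of siNT libraries 8 and 9 or miR-708 libraries 7, 8 and 9 was left out (adjusted p = 0.065 to 0.11), SNHG1 when siNT library 8 or 9 or miR-708 library 9 was (0.087 to 0.094), and both when libraries were scaled by their totals (0.10 and 0.14) or without the variance trend (0.078 and 0.052). GAS5 also lost it with upper quartile scaling (0.054).

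**Figure D2:**
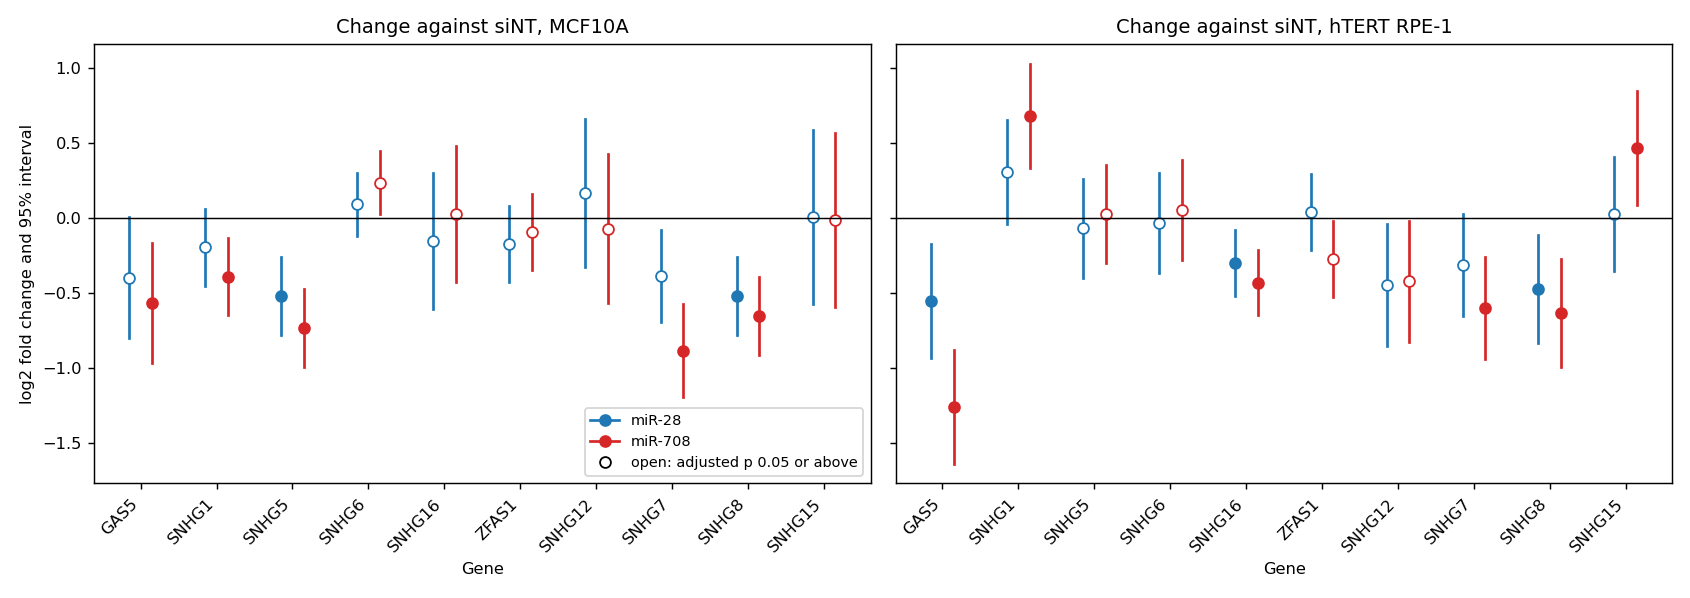
Log2 fold change against siNT with its 95% interval for each of the 10 hosts, miR-28 in blue and miR-708 in red, MCF10A left and hTERT RPE-1 right. Filled points passed an adjusted p of 0.05. With miR-708, SNHG1 lies below 0 in MCF10A (-0.39) and above 0 in hTERT RPE-1 (0.68), and GAS5 lies lowest in hTERT RPE-1 (-1.26).

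In hTERT RPE-1, GAS5, SNHG8 and SNHG16 fell with both mimics, SNHG7 fell with miR-708, and SNHG1 and SNHG15 rose with miR-708. Of the 14527 genes tested in this line, 23.5% were called lower and 23.3% higher with miR-28, and 31.2% lower and 30.9% higher with miR-708. The hosts thus had 3 of 10 lower and 0 of 10 higher calls with miR-28, and 4 of 10 lower and 2 of 10 higher calls with miR-708, so that the shares of lower calls lay near those backgrounds. Called lower with both mimics were 3 of 10 hosts against 20.8% of all genes. Their median log2 fold change was -0.19 with miR-28 and -0.35 with miR-708, beside 0.0061 and 0.0021 for all genes.

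GAS5 had 1721, 1565 and 1566 normalised reads in siNT libraries 1, 2 and 3, 1429, 912 and 1024 with miR-28 and 838, 585 and 628 with miR-708. The 3 groups did not overlap, and miR-708 left 42.3% and miR-28 69.4% of the siNT mean. The log2 fold change was -1.26 ± 0.17 (SE, adjusted p = 0.000106) with miR-708 and -0.55 ± 0.17 (SE, adjusted p = 0.0224) with miR-28. Within each of the 3 groups library 1 was the highest. Without miR-28 library 1, the one with the high share of ribosomal RNA, the miR-28 change was -0.74 (adjusted p = 0.0019). Without siNT library 1 or miR-28 library 2 or 3 it was between -0.51 and -0.42 and not called (0.072 to 0.074).

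SNHG8 went from 589.7, 555 and 583 normalised reads in siNT to 505, 363 and 390.3 with miR-28 and 445, 298 and 384 with miR-708. All mimic libraries were below the siNT libraries, which lay close together. The changes were -0.47 ± 0.16 (SE, adjusted p = 0.0352) with miR-28 and -0.63 ± 0.16 (SE, adjusted p = 0.00602) with miR-708. SNHG16, host of the SNORD1 group, had 3659.7, 3405 and 4097 normalised reads in siNT, 3389, 2796 and 2879.8 with miR-28 and 2763, 2644 and 2849.7 with miR-708. Its siNT libraries were above all 6 mimic libraries, only just in the case of miR-28 library 1. The change was -0.30 ± 0.10 (SE, adjusted p = 0.0281) with miR-28 and -0.43 ± 0.10 (SE, adjusted p = 0.00308) with miR-708. Without miR-28 library 1, the miR-28 changes were -0.61 for SNHG8 (adjusted p = 0.0090) and -0.39 for SNHG16 (0.0080). Leaving out any one of siNT libraries 1 and 3 or miR-28 libraries 2 and 3 ended both miR-28 calls (adjusted p = 0.064 to 0.10), and leaving out siNT library 2 ended that of SNHG8 (0.067). Both were also lost with libraries scaled by their totals (0.058 and 0.10) and without the variance trend (0.053 and 0.051), and that of SNHG16 with only the groups compared in the fit (0.057). For the 7 hosts not called with miR-28, the log2 fold changes without miR-28 library 1 ran from -0.32 (SNHG7) to 0.35 (SNHG1), and none was called.

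SNHG7 had 518, 539.9 and 369.6 normalised reads in siNT, 381, 376 and 375 with miR-28 and 309.9, 272 and 349.7 with miR-708. The miR-28 libraries fell inside the range of siNT, whose library 3 was low, and the miR-708 libraries were below all of them. The log2 fold change was -0.60 ± 0.15 (SE, adjusted p = 0.00594) with miR-708 and -0.31 ± 0.15 (SE, adjusted p = 0.117) with miR-28 (-0.49, adjusted p = 0.012, without siNT library 3).

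SNHG1 moved the other way, with 720.0, 593 and 603 normalised reads in siNT, 735, 819 and 807 with miR-28 and 1153, 775 and 1189 with miR-708. Every mimic library was above the highest siNT library, and library 2 of the miR-708 group stood below the other 2. The change was 0.68 ± 0.16 (SE, adjusted p = 0.00318) with miR-708, to 163% of the siNT mean, and 0.31 ± 0.16 (SE, adjusted p = 0.133) with miR-28, which passed without miR-708 library 2 in the fit (adjusted p = 0.036). SNHG15, the host with the lowest values in both tables, had 127, 118 and 93.9 normalised reads in siNT, 120.0, 115 and 107 with miR-28 and 166, 130.3 and 173 with miR-708. The miR-708 libraries were above all 6 others, and the miR-28 libraries lay within the range of siNT. Its change was 0.47 ± 0.17 (SE, adjusted p = 0.0354) with miR-708 and 0.027 (adjusted p = 0.91) with miR-28. The miR-708 call for SNHG15 was lost without siNT library 2 or 3 or miR-708 library 1 or 3 (adjusted p = 0.057 to 0.12).

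SNHG5, SNHG6, SNHG12 and ZFAS1 did not pass the test with either mimic in hTERT RPE-1. SNHG5 had 309.9, 279.7 and 294.96 normalised reads in siNT, 338, 231 and 283 with miR-28 and 306, 270.1 and 327 with miR-708, and all 3 groups overlapped. SNHG12 and ZFAS1 were near the threshold with miR-708, at -0.42 ± 0.18 (SE, adjusted p = 0.0654) and -0.27 ± 0.11 (SE, adjusted p = 0.0594), with all miR-708 libraries below siNT in both. SNHG12 was called with miR-708 without siNT library 3 or miR-28 library 1 or 2 or with only the groups compared in the fit (adjusted p = 0.034 to 0.045), and with miR-28 without siNT library 3 or miR-28 library 2 (0.043 and 0.027). ZFAS1 was called with miR-708 without miR-708 library 1 or 3 or with the library number as a block (0.043 to 0.046). Groups did not overlap in 4 of 10 hosts with miR-28 and 8 of 10 with miR-708, against 54.4% and 69.2% of all genes. Scaling libraries by their totals, which moves the all-gene median in hTERT RPE-1 with miR-708 from 0.0021 to 0.32 on the log2 scale, ended the miR-708 calls of SNHG7, SNHG8 and SNHG16, whose changes were then -0.28, -0.32 and -0.11, kept those of GAS5, SNHG1 and SNHG15, and added a higher call for SNHG6 (0.37, adjusted p = 0.037). In these bulk libraries, a lower level in every cell and a lower level in some of the cells cannot be told apart.

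The lines differed in their response to miR-708 in 3 of 10 hosts, SNHG1, SNHG5 and GAS5, by a test of the difference between the 2 log2 fold changes, which called 39.8% of the 13339 genes tested in both lines. SNHG1 fell in MCF10A (-0.39) and rose in hTERT RPE-1 (0.68), a difference of 1.07 ± 0.20 (SE, 95% interval 0.67 to 1.48, adjusted p = 0.000236). SNHG5 fell in MCF10A (-0.73) and gave 0.026 in hTERT RPE-1, a difference of 0.76 ± 0.19 (SE, 95% interval 0.36 to 1.16, adjusted p = 0.00344). GAS5 fell in both, more in hTERT RPE-1 (-1.26 against -0.57), with a difference of -0.69 ± 0.25 (SE, 95% interval -1.21 to -0.17, adjusted p = 0.033). The difference for GAS5 was lost when any one of 7 libraries was left out (adjusted p = 0.053 to 0.088), which were siNT libraries 7 and 8 and miR-708 libraries 8 and 9 of MCF10A and siNT library 1 and miR-708 libraries 2 and 3 of hTERT RPE-1. It was also lost with libraries scaled by their totals (-0.51, adjusted p = 0.10) and without the variance trend (adjusted p = 0.068). Differences with miR-708 were gained by SNHG15 without MCF10A siNT library 7 (0.78, adjusted p = 0.040) and by SNHG16 without MCF10A siNT library 9 (-0.71, adjusted p = 0.0094). For SNHG8, which fell in both lines, the difference was 0.0196 ± 0.20 (SE, 95% interval -0.40 to 0.44, adjusted p = 0.947).

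With miR-28 no host differed between the lines by the adjusted p of the same test of the difference, where 23.4% of genes did, and 3 of 10 hosts had an unadjusted p under 0.05. These were SNHG1 with 0.50 ± 0.20 (SE, 95% interval 0.0928 to 0.91, adjusted p = 0.0692), SNHG5 with 0.45 ± 0.19 (SE, 95% interval 0.055 to 0.85, adjusted p = 0.0908) and SNHG12 with -0.62 ± 0.29 (SE, 95% interval -1.22 to -0.0124, adjusted p = 0.129). Without miR-28 library 1 of hTERT RPE-1 they were 0.55, 0.32 and -0.44, also not called. Leaving out 1 other library made each of them pass: SNHG1 without MCF10A siNT library 7 or hTERT RPE-1 miR-708 library 2 (adjusted p = 0.026 and 0.025), SNHG5 without hTERT RPE-1 miR-28 library 2 (0.027) and SNHG12 without MCF10A siNT library 8 (0.028). Each table was normalised on its own, so levels were compared only within a line, and the lines were compared through their fold changes.

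**Figure D3:**
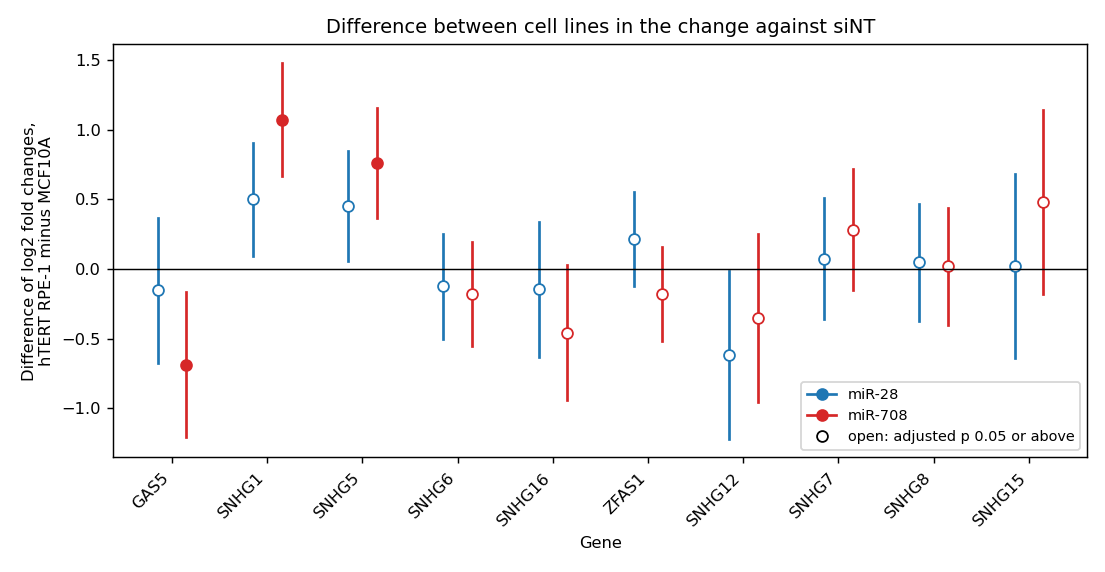
Difference between the cell lines in the log2 fold change against siNT, hTERT RPE-1 minus MCF10A, with its 95% interval, for each host, miR-28 in blue and miR-708 in red. Filled points passed an adjusted p of 0.05. They are GAS5 (-0.69), SNHG1 (1.07) and SNHG5 (0.76), all with miR-708.

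Between the mimics, at the same dose and time, 20 pairs were compared, 10 hosts in 2 lines, with p adjusted over all genes of the line. In MCF10A no host differed by limma, where 1.55% of genes did, and 1 of 10, SNHG7, had an unadjusted p under 0.05. SNHG7 was lower with miR-708 than with miR-28, with a difference of -0.50 on the log2 scale (95% interval -0.81 to -0.19, adjusted p = 0.13), and the groups did not overlap. In hTERT RPE-1, where 21.2% of genes differed, GAS5 was lower with miR-708 than with miR-28, with a difference of -0.70 ± 0.17 (SE, 95% interval -1.08 to -0.32, adjusted p = 0.017). Without library 2 or 3 of the miR-708 group the difference for GAS5 was -0.60 or -0.65 and was no longer called (adjusted p = 0.059 and 0.067), and without miR-28 library 1 it was -0.52 (adjusted p = 0.038). The differences for SNHG1 and SNHG15 were 0.38 (0.030 to 0.72) and 0.44 (0.059 to 0.82), with adjusted p of 0.11 and 0.095, and that for ZFAS1 was -0.31 (-0.57 to -0.060, adjusted p = 0.077), with all miR-708 libraries below the miR-28 libraries. SNHG1 and SNHG15 passed with libraries scaled by their totals (adjusted p = 0.016 and 0.013), and SNHG1 without miR-708 library 2 (0.011). For SNHG8 the intervals of the difference were -0.39 to 0.13 in MCF10A and -0.52 to 0.20 in hTERT RPE-1, so differences between the mimics up to those bounds lie within them.

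Several hosts start head to head with a protein-coding gene. SLC3A2, the heavy chain of amino acid transporters such as the cystine/glutamate antiporter, starts 119 bases from the start of SNHG1 on the opposite strand. SLC3A2 fell in MCF10A with both mimics (log2 fold change -0.88 and -0.57, adjusted p = 0.00372 and 0.0198) and rose in hTERT RPE-1 with both (0.69 and 1.45, adjusted p = 0.0147 and 9.8e-05). With miR-708 in MCF10A its groups overlapped, and the call was lost without siNT library 7 or 9 or miR-708 library 8 or 9, with libraries scaled by their totals and without the variance trend (adjusted p = 0.052 to 0.082). With miR-28 in hTERT RPE-1 it was lost without siNT library 3 (0.055). In each of the 4 comparisons the fold change of SLC3A2 had the sign of that of SNHG1, which itself passed the test only with miR-708, and all 4 share the siNT libraries of their line. ZNFX1, an RNA helicase gene induced in antiviral responses, starts 248 bases from ZFAS1 on the opposite strand. It rose in all 4 comparisons, by 0.69 to 1.99 on the log2 scale, while ZFAS1 gave -0.27 to 0.041 and passed in none. ZBTB37, a zinc finger gene 800 bases from the start of GAS5, fell in hTERT RPE-1 (-0.41 with miR-28 and -0.35 with miR-708) and gave 0.29 and 0.25 in MCF10A, not called. Its miR-708 call in hTERT RPE-1 was lost without siNT library 3 or miR-708 library 1 or 3, without the variance trend, and with libraries scaled by their totals, where ZBTB37 gave -0.029 (adjusted p = 0.055 to 0.86). The miR-28 call was lost without siNT library 3 or miR-28 library 2 and with libraries scaled by their totals (0.055 to 0.076). In MCF10A ZBTB37 was called higher with both mimics under that scaling (0.40 and 0.39, adjusted p = 0.046 and 0.040).

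Exons of 4 hosts overlap a gene on the opposite strand in the annotation, and whether the reads were counted by strand is not given in the sources used here, so reads on these bases cannot be told apart. The overlap is 41 bases of GAS5 with GAS5-AS1, 231 bases of SNHG6 with MCMDC2, 85 bases of SNHG7 with DIPK1B and 8 bases of SNHG12 with TRNAU1AP. GAS5-AS1 had group means of 22.4 to 47.8 normalised reads, MCMDC2 of 23.2 to 42.8 and DIPK1B of 15.2 to 69.4, each far below its host. DIPK1B fell in hTERT RPE-1 (-0.88 with miR-28 and -1.18 with miR-708), where SNHG7 gave -0.31 and -0.60, and its miR-28 call was lost without siNT library 1 or miR-28 library 2 (adjusted p = 0.074 and 0.064). TRNAU1AP, a selenocysteine tRNA-associated protein gene with 306.7 to 518 normalised reads, rose in MCF10A by 0.48 and 0.76, where SNHG12 gave 0.17 and -0.071. Its miR-28 call was lost without siNT library 7, 8 or 9 or miR-28 library 8 or 9 and with only the groups compared in the fit (adjusted p = 0.052 to 0.12).

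**Figure D4:**
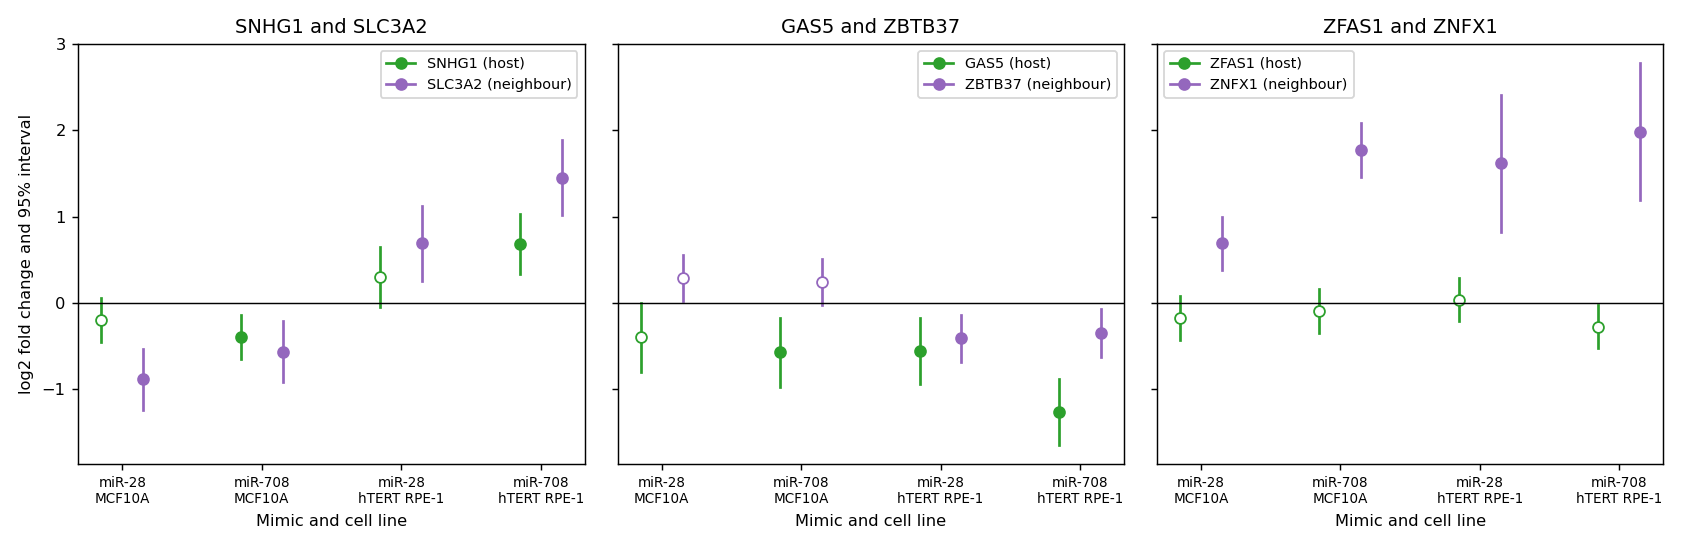
Log2 fold change against siNT with its 95% interval for 3 hosts (green) and the protein-coding gene that starts within 1 kb on the opposite strand (purple), by mimic and cell line. Filled points passed an adjusted p of 0.05. SNHG1 and SLC3A2 lie on the same side of 0 in each comparison, and ZNFX1 lies above 0 where ZFAS1 does not pass.

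Other snoRNA hosts, proteins that build snoRNPs, and factors and reported targets of NMD were counted from lists chosen with earlier results known. The counts are to be read beside the all-gene shares of 12.0% lower and 10.7% higher (miR-28) and 17.3% and 15.5% (miR-708) in MCF10A, and 23.5% and 23.3% (miR-28) and 31.2% and 30.9% (miR-708) in hTERT RPE-1. Of the ribosomal protein genes that host snoRNAs, 14 of 27 fell with miR-28 and 20 of 27 with miR-708 in MCF10A, and 27 of 27 fell with each mimic in hTERT RPE-1. None of the 27 rose, with library totals as the scale as well, and their median log2 fold changes were -0.38, -0.67, -0.79 and -1.29. The miR-28 count in MCF10A was 8 without siNT library 8 and 9 without siNT library 9. RPL23A, a large subunit protein that hosts SNORD42 genes, fell to 3298 ± 589 normalised reads with miR-708 in hTERT RPE-1 from 16062 ± 614 in siNT (-2.30), and RPL3 in MCF10A to 24616 ± 1858 from 55467 ± 2201 (-1.17). Among 23 other protein-coding hosts, 5 fell with miR-28 and 13 with miR-708 in MCF10A with none higher, and in hTERT RPE-1 7 fell and 3 rose with miR-28 and 9 fell and 5 rose with miR-708 (6 and 10 with libraries scaled by their totals). In MCF10A the miR-28 count was 1 without siNT library 8 or 9, 3 without siNT library 7, 2 without miR-28 library 8 and 9 without miR-708 library 7, and the miR-708 count was 5 to 7 without siNT library 8 or 9 or miR-708 library 8 or 9. The translation elongation factor gene EEF2 (-1.19) and RACK1, a protein of the small subunit (-1.09), were among those that fell in hTERT RPE-1 with miR-708.

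Of 18 tested noncoding hosts outside the 10, in MCF10A 1 fell with miR-28 and 4 fell with miR-708, and none rose, with 0 to 2 called with miR-28 when 1 library was left out (0 without siNT library 7, 8 or 9 or miR-28 library 8, and 2 without miR-708 library 7). In hTERT RPE-1 7 fell and 1 rose with miR-28, and 8 fell and 3 rose with miR-708 (6 and 5 with libraries scaled by their totals, and 5 and 2 without miR-708 library 2). SNHG3, host of SNORA73A and SNORA73B, went from 928 ± 36.8 to 579 ± 53.8 normalised reads with miR-28 and 479.5 ± 57.1 with miR-708 in hTERT RPE-1 (-0.68 and -0.96). DANCR, host of SNORA26, also fell there (-1.09 and -1.23), as did EPB41L4A-AS1 (-0.64 and -0.82). The miR-28 groups of DANCR overlapped, and its miR-28 call was lost without siNT library 1 or 3, miR-28 library 2 or 3 or miR-708 library 1 or 3, without the variance trend and with only the groups compared in the fit (adjusted p = 0.050 to 0.12), with log2 fold changes from -1.57 to -0.64 when 1 library was left out. Its miR-708 call was lost without siNT library 3 or miR-708 library 2 (0.065 and 0.061).

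Among 16 proteins that build snoRNPs, in MCF10A 4 fell with miR-28 and 6 with miR-708 and none rose, and in hTERT RPE-1 3 fell and 2 rose with miR-28 and 1 fell and 5 rose with miR-708 (0 and 11 with libraries scaled by their totals). Of all genes, 12.0% and 17.3% were called lower with miR-28 and miR-708 in MCF10A. In hTERT RPE-1, 23.5% and 31.2% were called lower and 23.3% and 30.9% higher. In MCF10A the miR-28 count was 2 without siNT library 8, and the miR-708 count was 3 without siNT library 8 or 9 or miR-708 library 9. FBL, the methyltransferase of box C/D snoRNPs, fell in MCF10A (-0.57 and -0.75) and with miR-28 in hTERT RPE-1 (-0.48, adjusted p = 0.011), and gave -0.16 with miR-708 there, not called. NOP56, its box C/D partner, rose in hTERT RPE-1 (0.35 and 0.57, the first not called without siNT library 3, adjusted p = 0.051), as did NAF1, an H/ACA assembly factor (0.72 and 1.01). MYC, a transcription factor that drives many ribosome biogenesis genes, fell in MCF10A (-0.74 and -0.95) and gave -0.065 and -0.10 in hTERT RPE-1, not called.

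Of 23 factors of nonsense-mediated decay, 5 rose and 3 fell with miR-28 and 4 rose and 3 fell with miR-708 in MCF10A, and 5 rose and 5 fell with miR-28 and 8 rose and 5 fell with miR-708 in hTERT RPE-1 (15 and 2 with libraries scaled by their totals). Of all genes in MCF10A, 10.7% rose and 12.0% fell with miR-28, and 15.5% rose and 17.3% fell with miR-708. In hTERT RPE-1 these shares were 23.3% and 23.5%, and 30.9% and 31.2%. In MCF10A, 4 or 5 were called with miR-28 without siNT library 8 or 9 or miR-28 library 9, and 4 and 3 with miR-708 without miR-708 library 8 and 9. UPF1, the central helicase, fell with miR-708 in MCF10A (-0.28, adjusted p = 0.024) and was not called elsewhere as fitted here. That call was lost without siNT library 7 or 8 or miR-708 library 8 or 9, with upper quartile scaling, and with libraries scaled by their totals, where UPF1 gave -0.14 (adjusted p = 0.051 to 0.20), and UPF1 was called lower with miR-28 in hTERT RPE-1 without siNT library 3 or miR-28 library 2 (0.041 and 0.047). SMG5, a decay adaptor, was called in no comparison as fitted here. With libraries scaled by their totals it was called higher with miR-708 in hTERT RPE-1 (0.35, adjusted p = 0.015). CASC3, a core protein of the exon junction complex that marks spliced RNAs for this decay, fell in both lines, to 33.4% of the siNT mean in hTERT RPE-1 with miR-708 (-1.59), and PNRC2, a decapping coactivator, rose (1.248). Of 15 genes whose mRNAs are reported decay targets, 2 rose and 5 fell with miR-28 and 4 rose and 6 fell with miR-708 in MCF10A, and 7 rose and 4 fell and 8 rose and 5 fell in hTERT RPE-1. ATF4, a stress-induced transcription factor, fell in MCF10A (-1.05 and -0.89) and rose in hTERT RPE-1 (0.45 and 0.35), where its miR-708 call was lost without siNT library 1 or 3 or miR-708 library 1 or 2 (adjusted p = 0.050 to 0.095). TRIB3 and ASNS fell with miR-708 in MCF10A (-1.94 and -2.21) and rose with it in hTERT RPE-1 (0.87 and 0.50). Their MCF10A siNT libraries varied widely, from 1110 to 1995 normalised reads for TRIB3 and from 1120 to 5293 for ASNS. The ASNS fall ran from -2.93 to -1.81 when 1 library was left out. DDIT3 and ATF3 rose with miR-708 in both lines (1.47 and 2.07 in MCF10A, 3.09 and 3.03 in hTERT RPE-1), and CARS1 fell with it in both (-1.45 and -0.74). The part of any of these genes in the levels of the 10 hosts was not tested.

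**Figure D5:**
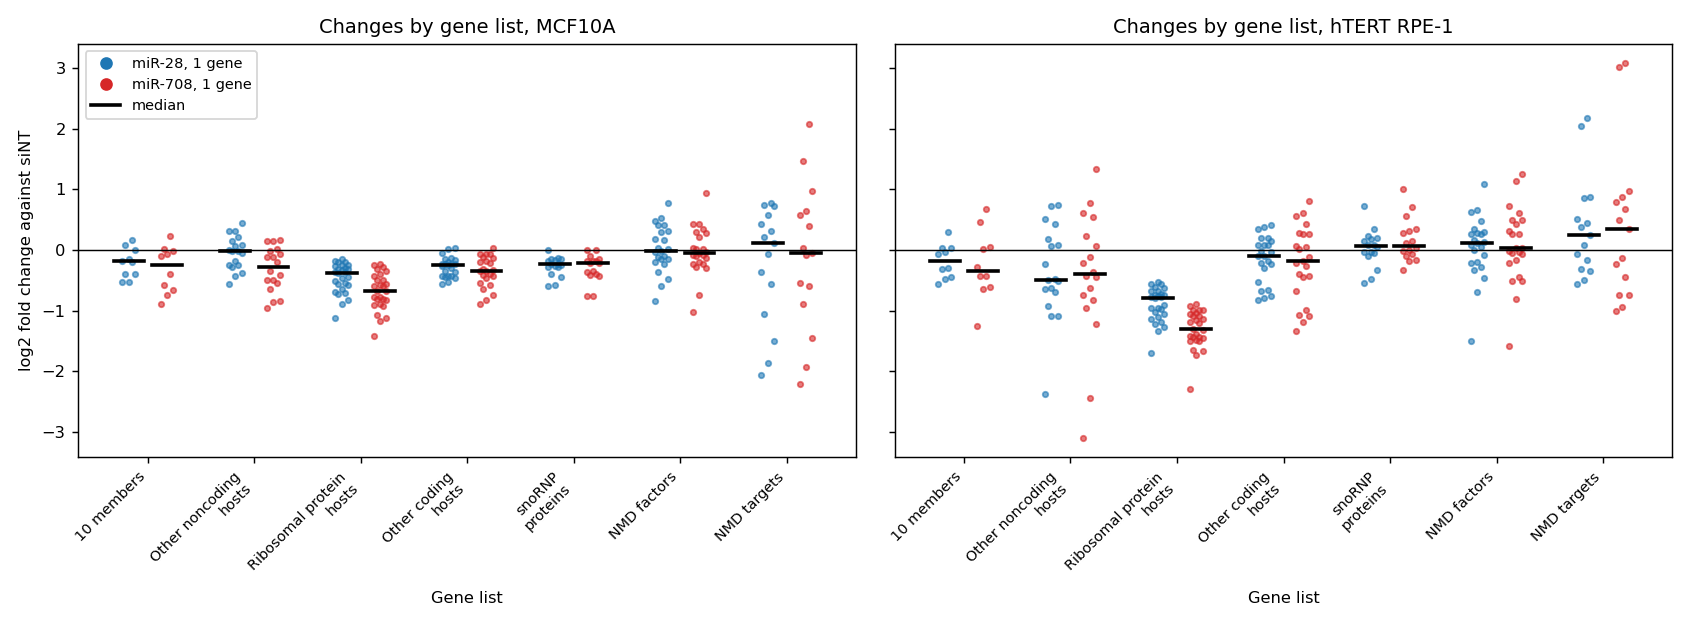
Log2 fold change against siNT of each tested gene (points) and the median (bar) of the 10 hosts and of 6 related lists, miR-28 in blue and miR-708 in red, MCF10A left and hTERT RPE-1 right; NMD is nonsense-mediated decay. All 27 ribosomal protein hosts lie below 0 in each comparison, with medians down to -1.29, while the 10 hosts spread on both sides of 0.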

How the data were processed

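Polyadenylated RNA of 18 libraries was used, 3 per group and line. The deposited signal values are estimated reads per gene divided by a size factor of the library: the authors trimmed adapters, aligned to hg38 with HISAT2 2.1.0, estimated reads per RefSeq transcript with the E/M algorithm of Partek, and compared groups with DESeq2. The methods describe the libraries as biological triplicates. Whether counting used strand is not given in the sources used here. Values are called normalised reads here. Whole reads could not be recovered for all genes, so no count test was run, and counting error is not given for single values. The other deposited tables hold means, ratios and p-values of the authors' own comparisons, of which only gene positions were used.

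Within each line, genes that reached 10 normalised reads in 3 or more of its 9 libraries were fitted with limma 3.58.1 (R 4.3.3, variance trend over the mean) on log2(value + 1), with 3 group means per line and Benjamini-Hochberg adjustment over all genes tested, at a threshold of 0.05. Fold changes are on that scale, which understates those of low genes. The lines were compared by the difference of their fold changes, with pooled degrees of freedom (Welch-Satterthwaite), over 13339 genes. No exact permutation test was used, since 3 against 3 libraries cannot give a p below 0.1. Depth was taken from the value of 1 read in each library, and 3 reads correspond to 2.35 to 4.40 normalised reads. Same-numbered libraries deviated together (correlation over 0.1 in every pair) for both mimics against siNT in MCF10A (0.111 to 0.302) and for miR-708 against miR-28 in hTERT RPE-1 (0.134 to 0.278). Transcripts came from GENCODE 44, start windows, snoRNA positions and the microRNA from RefSeq. Python 3.11.15 was used for the annotation, and the tests were checked on simulated data.

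Outside the 10 hosts, the text names genes by a rule: from each list and line, up to 3 genes with the largest absolute mean of the log2 fold changes of both mimics, among those called with both mimics and with a mean of at least 100 normalised reads, and always RPS28, MYC, UPF1, SMG5 and ATF4, and genes that start within 1 kb on the opposite strand or whose exons overlap a host. Not all of these are printed. The members, the lists and this rule were chosen with earlier results of these data known. Alternatives changed the pseudocount, the filter, the scaling, the variance trend, the groups in the fit, the replicate block, and left out each library.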

Additional observations from a re-analysis of the deposited data

Results flagged for a closer look

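The response to miR-708 differed between the cell lines in GAS5, SNHG1 and SNHG5, by the test of the difference between the log2 fold changes of hTERT RPE-1 and MCF10A. For SNHG1 the difference was 1.07 (adjusted p = 0.000236), with miR-708 libraries all below siNT in MCF10A and all above it in hTERT RPE-1. For SNHG5 it was 0.76 (adjusted p = 0.00344), with all 3 miR-708 libraries below siNT in MCF10A and overlapping groups in hTERT RPE-1. For GAS5 it was -0.69 (adjusted p = 0.0330), with miR-708 libraries below siNT in both lines. With 39.8% of all genes tested called in the same comparison, differences of this kind were common in these data.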

How the results depend on the processing

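Of 1620 values of the 10 hosts under the alternatives, 1483 kept their direction and their side of the threshold, 48 lost and 28 gained a call, and 61 changed sign. None of the 94 sign changes, in the hosts and the other named genes, was of a gene called as reported. A pseudocount of 0.5 or 10, no filter and a filter of at least 50 changed none of the 80 host values each.

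With the library number as a block, 4 hosts were called for miR-28 in MCF10A in place of 2 (adding GAS5 and SNHG7), where the numbers pair the libraries. The block changed no other call in the comparisons whose numbers pair. In the others it called ZFAS1 for miR-708 in hTERT RPE-1 (adjusted p = 0.0441) and SNHG16 for the line difference with miR-708 (0.0409). Over all genes the block moved the calls from 3347 to 4408 for miR-28 and from 4835 to 5818 for miR-708 in MCF10A, from 228 to 643 for miR-708 against miR-28 there, and in hTERT RPE-1 from 6798 to 6997, from 9024 to 9101 and from 3084 to 3315.

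Leaving out each library in turn, the number of hosts called ranged from 3 to 5 for miR-708 in MCF10A, 0 to 4 for miR-28 in hTERT RPE-1, 0 to 1 for miR-708 against miR-28 there and 0 to 1 for the line difference with miR-28, while the median log2 fold change of the hosts ranged from -0.32 to -0.13 with miR-28 and from -0.42 to -0.19 with miR-708 in MCF10A. Without the variance trend, 3 hosts were called for miR-708 in MCF10A and 1 for miR-28 in hTERT RPE-1. With only the groups compared in the fit, 1 was called for the line difference with miR-28. With libraries scaled by their totals, 1 was called for miR-28 and 3 for miR-708 against miR-28 in hTERT RPE-1, and the host medians were -0.073 and -0.10 (miR-28 and miR-708 in MCF10A) and -0.029 (miR-708 in hTERT RPE-1). The host median for miR-708 in MCF10A was -0.19 with upper quartile scaling. Scaling multiplies all values of a library by the same factor, so host and all-gene medians moved together. Scaled by totals, the medians of all genes were 0.12 and 0.14 (miR-28 and miR-708 in MCF10A) and 0.32 (miR-708 in hTERT RPE-1). Why the library totals differed was not tested. Of the other lists in MCF10A, scaling by totals moved the number called from 5 to 2 (miR-28) and from 13 to 6 (miR-708) for other protein-coding hosts, from 6 to 2 (miR-708) for snoRNP proteins and from 1 to 2 (miR-28) for other noncoding hosts, and in hTERT RPE-1 from 6 to 11 (miR-708) for snoRNP proteins. With only the groups compared in the fit, other protein-coding hosts went from 5 to 8 and other noncoding hosts from 1 to 2 with miR-28 in MCF10A, the latter to 0 without the variance trend. Scaling by totals moved the median of all genes by up to 0.32 (miR-708 in hTERT RPE-1), and the share of higher calls from 47.1% to 66.1% and from 47.3% to 67.6% with miR-28 and miR-708 in MCF10A, and from 49.9% to 59.4% and from 49.7% to 71.8% in hTERT RPE-1. For miR-708 against miR-28 in hTERT RPE-1 that share moved from 46.5% to 84.8%.

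Leaving out 1 library at a time, the log2 values of some genes not called as reported spanned 0. For miR-28 in MCF10A, the range was UPF1 -0.072 to 0.011, SMG5 -0.14 to 0.12, SNHG12 -0.076 to 0.42, SNHG15 -0.29 to 0.17, SNHG16 -0.32 to 0.10, DIPK1B -0.40 to 0.50 and MCMDC2 -0.57 to 0.013. For miR-708 in MCF10A, the range was SNHG12 -0.31 to 0.18, SNHG15 -0.31 to 0.15, MCMDC2 -0.27 to 0.12 and SNHG16 -0.14 to 0.28. For miR-708 against miR-28 in MCF10A, the range was SNHG15 -0.19 to 0.15 and ZFAS1 -0.037 to 0.17. For miR-28 in hTERT RPE-1, the range was SNHG5 -0.20 to 0.070, SNHG6 -0.18 to 0.041, MYC -0.15 to 0.043, SNHG15 -0.10 to 0.12, GAS5-AS1 -0.39 to 0.12, MCMDC2 -0.45 to 0.22 and TRNAU1AP -0.013 to 0.090. For miR-708 in hTERT RPE-1, the range was MYC -0.26 to 0.14, GAS5-AS1 -0.41 to 0.10, SNHG5 -0.035 to 0.10, SNHG6 -0.037 to 0.19 and SMG5 -0.045 to 0.087. For miR-708 against miR-28 in hTERT RPE-1, the range was SNHG12 -0.15 to 0.16, SNHG5 -0.044 to 0.23 and SNHG6 -0.0027 to 0.23. For the line difference with miR-28, the range was SNHG15 -0.15 to 0.32, SNHG16 -0.40 to 0.021, SNHG7 -0.10 to 0.24 and SNHG8 -0.092 to 0.15. For the line difference with miR-708, the range was SNHG8 -0.11 to 0.18. Scaled by library totals, the values with a changed sign were UPF1 0.080 and SMG5 0.10 for miR-28 in MCF10A, SNHG12 0.072, SNHG15 0.13, ZFAS1 0.051, SMG5 0.011 and MCMDC2 0.049 for miR-708 in MCF10A, SNHG15 0.012 for miR-708 against miR-28 in MCF10A, SNHG5 0.017, SNHG6 0.051, MYC 0.021 and SMG5 0.012 for miR-28 in hTERT RPE-1, ZFAS1 0.047, MYC 0.22, UPF1 0.16, GAS5-AS1 0.18 and TRNAU1AP 0.25 for miR-708 in hTERT RPE-1, SNHG8 0.069 and SNHG16 0.10 for miR-708 against miR-28 in hTERT RPE-1 and SNHG15 -0.0055 for the line difference with miR-28. With upper quartile scaling they were UPF1 0.040 and SMG5 0.058 for miR-28 in MCF10A, SNHG15 0.036 for miR-708 in MCF10A, SNHG15 -0.026 for the line difference with miR-28 and SNHG8 -0.0053 for the line difference with miR-708.

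The 95% intervals give the precision that 3 libraries a group allow. The lowest host value rested on 64.0 reads, far above a count of 3.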
